A study of Mus musculus with 18 samples.

Results

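The genes of the vacuolar H+-ATPase (V-ATPase), the proton pump that acidifies lysosomes, and of the cathepsins, the proteases that work inside them, were followed in embryonic stem cells of the mouse (mESCs) and in embryoid bodies, suspended cell clumps in which mESCs differentiate. All gene names in both count tables that begin with Atp6v0 or Atp6v1, the names Atp6ap1 and Atp6ap2, and all names made of Cts and 1 further letter were taken, without pseudogenes. This gave 43 of 54352 shared gene names, of which 25 carried V-ATPase names and 18 were cathepsins. One of the 25, Atp6v1fnb, is named as a neighbour of Atp6v1f, is no known subunit and had 0 counts in all 18 libraries. Knock-in mESCs carried FLAG-tagged EED, a core subunit of Polycomb repressive complex 2, in its wildtype form (FLAG-WT) or with arginine in place of a lysine (K19R). Both lines were sampled as mESCs in leukemia inhibitory factor (LIF) and 2i (inhibitors of MEK and GSK3) at day 0, and as embryoid bodies without LIF and 2i at days 2, 6 and 10. Wildtype mESCs grown with LIF alone made up the remaining group, and each of the 9 groups held 2 libraries. The series' title asks how acetylation of EED by CBP/P300 bears on PRC2 targeting and on differentiation of mESCs. Every knock-in group carried the FLAG tag, and the sources used here do not give the number of clones behind each line.

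The V-ATPase couples ATP hydrolysis by its cytosolic V1 sector to proton transport through its membrane V0 sector. The low pH it creates activates cathepsins, most of which are cysteine proteases made as inactive precursors. In the early mouse embryo, visceral endoderm is known for strong endocytosis and large lysosomal vacuoles, in which proteins taken up from the mother are degraded. TFEB and its relatives are transcription factors known to drive many lysosomal genes through a DNA element, CLEAR, that holds an E-box.

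The FLAG-EED libraries held 20158077 to 28917558 read-pair counts and those of the wildtype mESCs 14190166 and 37375083. Of the 43 members, 32 had enough counts to be tested (20 of the V-ATPase and 12 cathepsins). The 11 others were Atp6v0d2, Atp6v1b1, Atp6v1e2, Atp6v1fnb, Atp6v1g3, Ctse, Ctsg, Ctsk, Ctsm, Ctsq and Ctss, which include the isoforms best known from osteoclasts (Ctsk, Atp6v0d2), kidney (Atp6v1b1, Atp6v1g3) and antigen-presenting cells (Ctss). Levels are CPM, counts relative to library size after scaling by trimmed mean of M-values (TMM), changes are log2 fold changes, and a gene was called at an adjusted p of 0.05 over all genes tested. The replicate 2 library of FLAG-WT at day 0 stood apart in some endoderm transcripts. Cubn, which encodes an endocytic receptor of visceral endoderm, was at 0.959 and 9.23 CPM in the FLAG-WT day 0 libraries and at 1.01 and 1.79 CPM in those of K19R.

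In FLAG-WT cells most tested genes of both groups rose through differentiation, and the summed level of the cathepsins changed by a larger factor than that of the pump. The 18 cathepsins summed to 437 and 465 CPM in the FLAG-WT libraries at day 0, 1876 and 1881 at day 2, 10742 and 10902 at day 6, then 8144 and 8742 at day 10. The 25 V-ATPase genes summed to 1242 and 1257 CPM at day 0, 2123 and 2139 at day 2, 4165 and 4172 at day 6, then 3541 and 3743 at day 10 in the same libraries. Replicates lay close together, and for both sums the day 6 libraries were the highest. Of the 32 tested members, 24 rose and 3 fell by day 2, when 28.5% of all tested genes rose and 27.6% fell. By day 6, 24 had risen and 4 had fallen, against 37.0% and 39.1% of all genes. By day 10, 24 had risen and 3 had fallen, against 37.0% and 40.9%. The members' median log2 change was 0.65, 1.61 and 1.42 at days 2, 6 and 10, and that of all genes 0.00, -0.05 and -0.12. With the members at 0 counts set at their bound or left out, the members' medians were 0.71, 1.63 and 1.53. The 3 comparisons share their day 0 libraries. With library totals in place of TMM, the median of all genes was -0.43 at day 6 and -0.53 at day 10. Higher genes then made 37.2% of all calls in place of 48.7% at day 6, and 36.8% in place of 47.5% at day 10, with 24 members higher and 4 lower at day 6 and 23 members higher and 5 lower at day 10.

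**Figure D1:**
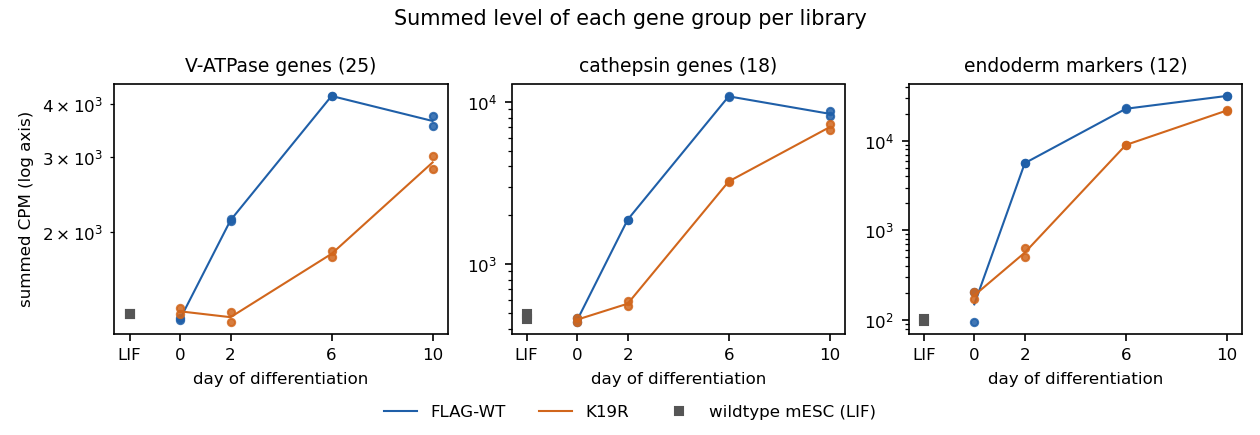
Summed CPM of the 25 V-ATPase genes, the 18 cathepsins and 12 markers of primitive and visceral endoderm by day, with points for libraries and lines through the means of 2 in FLAG-WT and K19R; wildtype mESCs in LIF are shown as squares. FLAG-WT cathepsins reached 10742 and 10902 CPM at day 6, when the K19R libraries stood at 3222 and 3241 CPM.

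Among the cysteine cathepsins, Ctsl, an endopeptidase of broad use in lysosomes (chromosome 13, 64359337 to 64370890 on GRCm38), was the most abundant per length in the FLAG-WT embryoid bodies. Its FLAG-WT libraries held 111 and 126 CPM at day 0, 1099 and 1118 at day 2, 3949 and 4114 at day 6, then 2830.4 and 2944 at day 10. The groups did not overlap, and the log2 change by day 2 was 3.23 ± 0.08 (SE; edgeR adjusted p = 1.8e-21). Ctsb, an endopeptidase that can also act as a carboxypeptidase, held 76.6 and 77.6 CPM at day 0, 130.4 and 130.2 at day 2, 2077 and 2067 at day 6, then 1623 and 1798 at day 10 in FLAG-WT. Its rise lay mainly between days 2 and 6, with a log2 change of 4.75 ± 0.08 (SE; edgeR adjusted p = 1.3e-25) from day 0 to day 6. Ctsz, a carboxypeptidase, held 31.6 and 30.9 CPM at day 0, 109 and 103 at day 2, 809 and 803 at day 6, then 535 and 586 at day 10, and its log2 change by day 6 was 4.69 ± 0.08 (SE; edgeR adjusted p = 3.9e-25). Ctsc, a dipeptidyl peptidase that activates granule proteases, was among the lowest at the start, with 2.34 and 4.84 CPM at day 0, 167 and 169 at day 2, 1052 and 1072 at day 6, then 552 and 538 at day 10 in FLAG-WT. Ctsh, an aminopeptidase, held 0.50 and 4.32 CPM at day 0, 20.4 and 19.98 at day 2, 1434 and 1464 at day 6, then 1208 and 1257 at day 10. Both were highest at day 6 and far above the day 0 libraries, with log2 changes by day 6 of 8.20 ± 0.16 for Ctsc and 9.21 ± 0.26 for Ctsh (SE; edgeR adjusted p = 2.5e-24 and 1.8e-21). The day 0 replicates of these 2 genes were far apart, and without FLAG-WT day 0 replicate 2 the changes were 8.82 for Ctsc and 11.48 for Ctsh, so the size of their rise is uncertain.

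Of the cathepsins of other protease classes, Ctsd, the main aspartic protease of lysosomes, held 139.5 and 141 CPM at day 0, 228 and 209 at day 2, 731 and 709.7 at day 6, then 789 and 902 at day 10 in FLAG-WT, with a log2 change by day 10 of 2.59 ± 0.08 (SE; edgeR adjusted p = 1.2e-20). Ctsa, a serine carboxypeptidase that also protects beta-galactosidase and neuraminidase in the lysosome, held 53 and 56.7 CPM at day 0, 103 and 109 at day 2, 642 and 628 at day 6, then 551 and 655 at day 10, and its log2 change by day 6 was 3.53 ± 0.08 (SE; edgeR adjusted p = 3.7e-23). For Ctsd the day 10 libraries were the highest, and for Ctsa the day 10 libraries lay on either side of those of day 6. Ctsf, a further cysteine protease, held 21.7 and 21.4 CPM at day 0, 15.6 and 16.9 at day 2, 46.2 and 40.7 at day 6, then 50.1 and 56.3 at day 10. It had fallen at day 2 (a log2 change of -0.40 ± 0.10, SE; edgeR adjusted p = 8.9e-04) and had risen above its starting level by day 6 (1.01 ± 0.09). Ctsw, also a cysteine protease and known from natural killer and cytotoxic T cells, held 0.834 and 0.559 CPM at day 0, 2.7 and 3.14 at day 2, 0.217 and 0.295 at day 6, then 0 and 0.216 at day 10 and fell by day 10 (edgeR adjusted p = 0.00156), with a size that rests on 1 library of day 10. The rise of Ctsw by day 2 was 2.07 ± 0.35 on the log2 scale (SE; edgeR adjusted p = 1.6e-05).

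**Figure D2:**
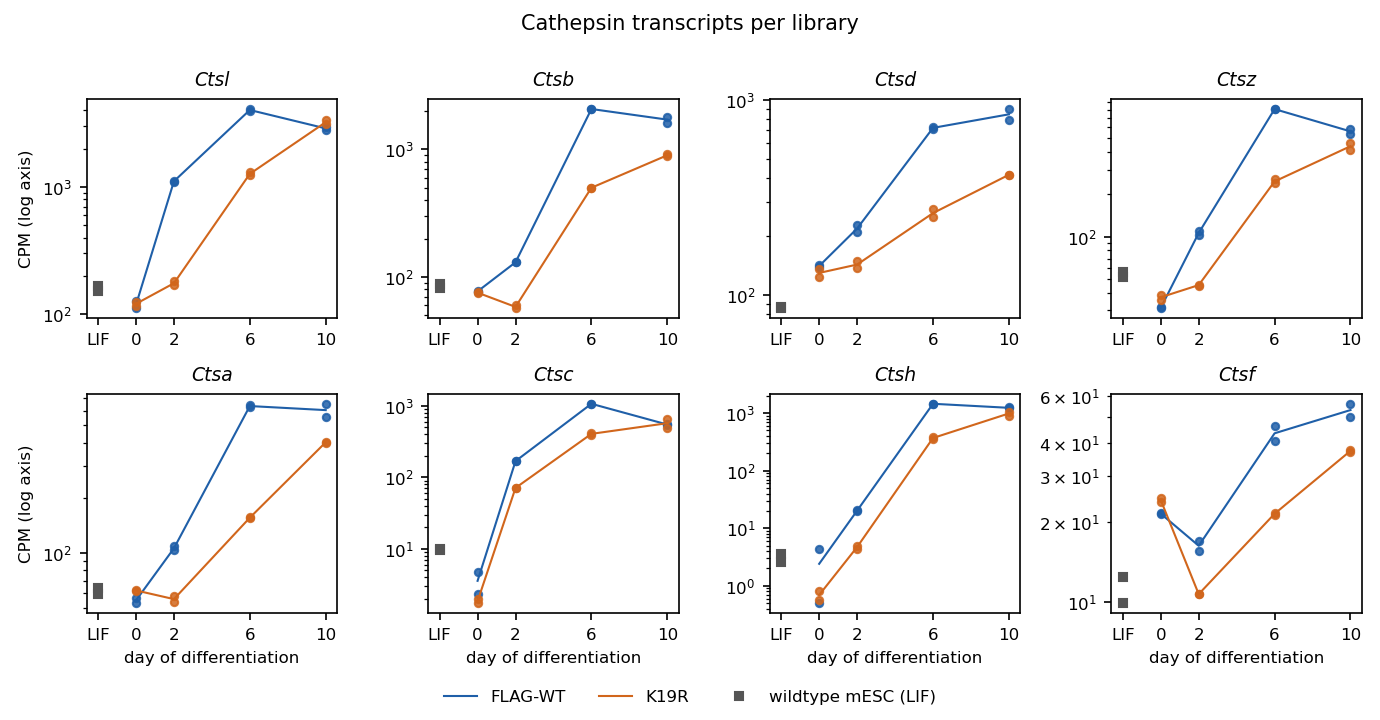
CPM of 8 cathepsin genes on a log axis by day, with a point for each library and lines through the means of 2 in FLAG-WT and K19R; squares are the wildtype mESCs in LIF. Ctsl in K19R stayed at 168 and 181 CPM at day 2, when FLAG-WT held 1099 and 1118 CPM. At day 10 K19R held 3128 and 3337 CPM of Ctsl and FLAG-WT 2830.4 and 2944 CPM.

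Among the V-ATPase genes, the largest rise by day 6 in FLAG-WT was that of an isoform of the membrane sector. Atp6v0a1, the a1 isoform of the V0 subunit that anchors the pump and passes protons, held 54.3 and 57.9 CPM at day 0, 302 and 309 at day 2, 639 and 679 at day 6, then 559.8 and 656 at day 10 in FLAG-WT. Its libraries did not overlap between days 0, 2 and 6, and its log2 change by day 6 was 3.55 ± 0.08 (SE; edgeR adjusted p = 2.7e-23). Atp6v1b2, the widely expressed B subunit of the V1 head, held 305 and 315 CPM at day 0, 374 and 379 at day 2, 860.5 and 878 at day 6, then 763 and 751 at day 10, with a log2 change by day 6 of 1.49 ± 0.06 (SE; edgeR adjusted p = 3.0e-17). Atp6v1e1, part of the stalk that holds the head in place, held 78.9 and 80.0 CPM at day 0, 109.9 and 107 at day 2, 256 and 245 at day 6, then 289.8 and 292 at day 10. Atp6ap2, the accessory subunit also known as the (pro)renin receptor, held 69.8 and 66.9 CPM at day 0, 97.9 and 93.8 at day 2, 217 and 205 at day 6, then 127 and 129.6 at day 10. Atp6v1e1 and Atp6ap2 had log2 changes of 1.66 ± 0.07 and 1.63 ± 0.09 (SE; edgeR adjusted p = 3.1e-17 and 1.7e-15) by day 6, and Atp6ap2 was lower again at day 10. Atp6v0c, the proteolipid of the rotating ring, held 20.2 and 19 CPM at day 0, 22.3 and 21.3 at day 2, 44.5 and 46.2 at day 6, then 40.7 and 43.4 at day 10, and Atp6v1c1, the C subunit that links V1 to V0, held 66.6 and 63.1 CPM at day 0, 95.8 and 99.3 at day 2, 107 and 109.7 at day 6, then 95.1 and 93.3 at day 10. Both had risen by day 6, with log2 changes of 1.21 ± 0.09 and 0.74 ± 0.07 (SE; edgeR adjusted p = 2.1e-12 and 2.0e-10).

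**Figure D3:**
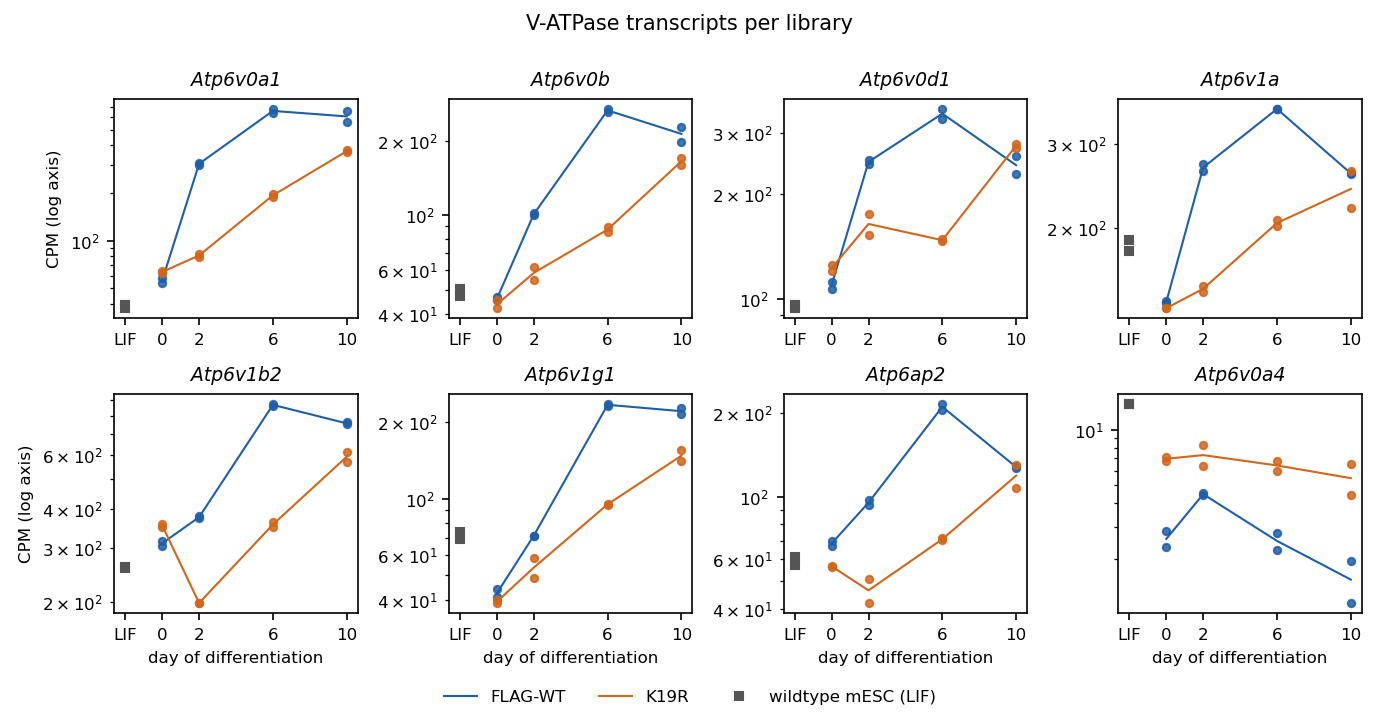
CPM of 8 V-ATPase genes on a log axis by day, with a point for each library and lines through the means of 2 in FLAG-WT and K19R; squares are the wildtype mESCs in LIF. Atp6v0a1 stood at 302 and 309 CPM in FLAG-WT and 82.9 and 78.4 CPM in K19R at day 2, and Atp6v0a4 was higher in K19R at each day.

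Promoters were read because these genes moved together and because the CLEAR element has a known sequence. RefSeq promoters on GRCm38.p6 (250 bases before to 50 after the start) were found for 33 members, which had 37 promoters. The E-box CACGTG was searched on both strands, on which it reads the same, as was TCACGTGA, the core of CLEAR, which contains CACGTG. The shorter motif stood in the promoters of 8 members (Atp6v0b, Atp6v0d1, Atp6v0e, Atp6v1a, Ctsa, Ctsd, Ctsf and Ctsl), or 21.6% of the 37 promoters, against 7.15% of all 32851 promoters in the table. TCACGTGA stood in those of 5 members, or 13.5% against 0.974%. The stretches around TCACGTGA in these 5 members are shown with the motif in capitals, 5′ to 3′ on the strand of the gene, followed by the stretch of Ctsl, the most abundant cathepsin per length in the FLAG-WT embryoid bodies, with its CACGTG in capitals. They lie at chr2:164833724-164833802 (plus strand) for Ctsa, which has 2 copies, chr7:142387883-142387962 (minus strand) for Ctsd, chr8:105566035-105566104 (minus strand) for Atp6v0d1, chr16:44139348-44139427 (minus strand) for Atp6v1a, chr17:26676362-26676425 (plus strand) for Atp6v0e and chr13:64370715-64370770 (minus strand) for Ctsl.
Ctsa: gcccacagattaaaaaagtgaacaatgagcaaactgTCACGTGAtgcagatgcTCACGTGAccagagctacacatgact
Ctsd: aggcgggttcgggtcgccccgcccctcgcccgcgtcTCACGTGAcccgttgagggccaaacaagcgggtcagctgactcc
Atp6v0d1: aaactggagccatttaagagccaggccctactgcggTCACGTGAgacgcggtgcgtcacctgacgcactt
Atp6v1a: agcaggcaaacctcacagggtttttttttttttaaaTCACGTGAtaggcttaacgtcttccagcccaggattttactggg
Atp6v0e: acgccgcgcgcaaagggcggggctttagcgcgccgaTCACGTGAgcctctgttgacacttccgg
Ctsl: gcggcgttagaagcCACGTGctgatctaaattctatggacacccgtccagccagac
A match is a description of letters and not a site of binding. Ctsc, Ctsz and Atp6v0a1, which rose as well, hold neither motif in this window.

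Of the members with TCACGTGA, Atp6v0d1 encodes the d subunit that couples the rotor to the ring, Atp6v1a the catalytic A subunit and Atp6v0e the small e subunit. In FLAG-WT, Atp6v0d1 went from 112 and 107 CPM at day 0 to 351 and 329 at day 6, Atp6v1a from 141 and 139.7 to 355 and 356 and Atp6v0e from 43.5 and 43.3 to 138 and 133. All 5, Ctsa and Ctsd included, rose by day 6 in FLAG-WT and were lower in K19R than in FLAG-WT at day 6. The log2 differences at day 6 were -2.03 for Ctsa, -1.45 for Ctsd, -1.20 for Atp6v0d1, -0.79 for Atp6v1a and -0.95 for Atp6v0e. Ctsc and Atp6v0a1, without the motif in the window, differed by -1.39 and -1.77, within the same range.

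In K19R cells the sums still rose from day 6 to day 10, the last day sampled. The 18 cathepsins summed to 466 and 442 CPM at day 0, 552 and 588 at day 2, 3222 and 3241 at day 6, then 6693 and 7291 at day 10. The 25 V-ATPase genes summed to 1323 and 1282 CPM at day 0, 1228 and 1297 at day 2, 1748 and 1807 at day 6, then 2811 and 3012 at day 10. The day 10 libraries were the highest for both sums, where in FLAG-WT those of day 6 were. Of the 32 tested members, 27 had their highest mean CPM at day 10 in K19R, and 19 at day 6 in FLAG-WT (26 and 17 with library totals). By day 2, 12 members rose and 7 fell in K19R, against 28.5% and 27.9% of all genes. By day 6, 23 rose and 3 fell, against 37.1% and 35.2%. By day 10, 27 rose and 1 fell, against 38.1% and 35.8%. Ctsj and Ctsr are among the 27 that rose and among the 27 highest at day 10. Both passed the filter on low counts only through K19R at day 10 and support nothing here. The members' median log2 changes were 0.14, 0.58 and 1.17 (all genes 0.03, 0.05 and 0.01), and with members at 0 counts at their bound or left out 0.14, 0.59 and 1.17. At day 2 the K19R line was split: Ctsl rose with a log2 change of 0.54 ± 0.08 (SE; edgeR adjusted p = 1.0e-06), whereas Ctsb and Atp6v1b2 fell by 0.37 and 0.83 (edgeR adjusted p = 6.7e-05 and 1.7e-11). Atp6ap2 fell by 0.29 (edgeR adjusted p = 0.00717), a call lost without K19R day 2 replicate 1 (-0.15, adjusted p = 0.196).

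At day 0 the lines differed at few members. 3 were higher and 3 lower in K19R than in FLAG-WT, against 5.51% and 4.98% of all genes, and the members' median log2 difference was -0.02 (all genes -0.0024). The cathepsin sum in K19R was 101% of that in FLAG-WT, and the V-ATPase sum 104%. Atp6v0a4, an isoform of V0 subunit a known from kidney intercalated cells, held 2.84 and 2.32 CPM in FLAG-WT and 7.16 and 6.77 CPM in K19R at day 0. Its groups did not overlap, the log2 difference was 1.44 ± 0.22 (SE; edgeR adjusted p = 6.3e-05), and it was the only member called whichever library of either group was left out. Ctsz, Atp6v1e1 and Atp6ap2 differed by 0.25 ± 0.08, 0.25 ± 0.07 and -0.27 ± 0.09 on the log2 scale (SE; edgeR adjusted p = 0.0459, 0.0259 and 0.0464). Leaving out any of the 4 libraries ended each of these 3 calls. Without FLAG-WT day 0 replicate 1, for example, Ctsz was at 0.27, adjusted p = 0.159, Atp6v1e1 at 0.24, adjusted p = 0.158 and Atp6ap2 at -0.24, adjusted p = 0.244 (edgeR). Ctsc was at 2.34 and 4.84 CPM in FLAG-WT and 1.75 and 1.98 in K19R, and Ctsh at 0.50 and 4.32 CPM in FLAG-WT and 0.82 and 0.564 in K19R. The Ctsh groups overlapped, and the log2 differences of -0.96 ± 0.26 for Ctsc and -1.78 ± 0.51 for Ctsh (SE; edgeR adjusted p = 0.0187 and 0.0255) became -0.33, adjusted p = 0.583, and 0.49, adjusted p = 0.643, without FLAG-WT day 0 replicate 2. Those 2 calls were also lost without either K19R day 0 library, where Ctsc was at -0.87, adjusted p = 0.165 and -1.03, adjusted p = 0.0664, and Ctsh at -2.10, adjusted p = 0.107 and -1.56, adjusted p = 0.158. The count of 6 calls was 1 to 3 with 1 library left out and 11 when only the 4 day 0 libraries were fitted.

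At day 2 most members were lower in K19R, with 23 of the 32 tested members lower and 3 higher, against 21.8% and 20% of all genes. The V-ATPase had 15 of 20 tested genes lower, of which 7 of 10 in V1 and 6 of 8 in V0, and the cathepsins 8 of 12. The members' median log2 difference was -0.52 (-0.56 with members at 0 counts at their bound or left out), and that of all genes 0.00. The cathepsin sum in K19R was 30.3% of FLAG-WT and the V-ATPase sum 59.2%. In bulk samples, fewer cells of a type and less RNA per cell cannot be told apart. Ctsl held 168 and 181 CPM in the K19R libraries against 1099 and 1118 in those of FLAG-WT, a log2 difference of -2.66 ± 0.08 (SE; edgeR adjusted p = 2.6e-19). Atp6v0a1 held 82.9 and 78.4 CPM against 302 and 309, a log2 difference of -1.92 ± 0.08 (SE; edgeR adjusted p = 6.2e-17). Ctsh held 4.41 and 5.01 CPM against 20.4 and 19.98, a log2 difference of -2.10 ± 0.23 (SE; edgeR adjusted p = 5.7e-08). For these 3 genes all K19R libraries lay below all FLAG-WT libraries by a wide gap. Ctsc (70.2 and 72 CPM in K19R), Ctsz (44.9 and 45.8), Ctsb (56.6 and 59.9) and Atp6ap2 (41.8 and 51.1) differed by -1.24 ± 0.11, -1.23 ± 0.07, -1.16 ± 0.07 and -1.04 ± 0.09 (SE) on the log2 scale, with edgeR adjusted p of 1.4e-09, 5.9e-13, 5.0e-13 and 2.6e-10.

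The difference between the lines was then compared between day 2 and day 0, as an interaction. It had moved down for 17 members and up for 0, against 14.4% and 12.7% of all genes, with a median of -0.50 (-0.53 with members at 0 counts at their bound or left out; all genes 0.00). Ctsl moved by -2.69 ± 0.11 (SE; edgeR adjusted p = 6.5e-16) on the log2 scale, Atp6v0a1 by -2.10 ± 0.11 (SE; edgeR adjusted p = 8.0e-14) and Ctsz by -1.48 ± 0.11 (SE; edgeR adjusted p = 9.9e-11). Ctsc and Ctsh were not called, at -0.28 ± 0.29 and -0.32 ± 0.63 (SE), but were at -0.91, adjusted p = 0.0213, and -2.59, adjusted p = 4.8e-05 (edgeR), without FLAG-WT day 0 replicate 2.

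At day 6 the members' median lay further below 0: 23 of the 32 tested members were lower in K19R and 4 higher, against 30.1% and 28.4% of all genes. The members' median log2 difference was -1.04 (-1.11 with members at 0 counts at their bound or left out), and that of all genes 0.02. With library totals the median of all genes was 0.38, higher genes made 72.9% of all calls in place of 48.6%, and the split was 6 members higher and 22 lower. The members' median less that of all genes was -1.06 under both scalings. A change of scaling shifts all genes of a comparison by nearly the same amount, so that this agreement is no check of the scaling. The cathepsin sum in K19R was 29.9% and the V-ATPase sum 42.6% of FLAG-WT with TMM, and 38.3% and 54.7% with library totals. The K19R libraries held 500.3 and 500.4 CPM of Ctsb against 2077 and 2067 in FLAG-WT, a log2 difference of -2.05 ± 0.07 (SE; edgeR adjusted p = 9.3e-18). Ctsa held 155 and 156 CPM against 642 and 628, a log2 difference of -2.03 ± 0.07 (SE; edgeR adjusted p = 3.7e-17), and Ctsh 360.4 and 377 CPM against 1434 and 1464, a log2 difference of -1.97 ± 0.16 (SE; edgeR adjusted p = 9.8e-11). The K19R libraries of these 3 genes lay far below those of FLAG-WT, and the groups did not overlap. In the V-ATPase, Atp6v0a1 (189 and 197 CPM in K19R), Atp6ap2 (70.2 and 71.6), Atp6v1b2 (349.7 and 364) and Atp6v1e1 (115 and 125) differed by -1.77 ± 0.07, -1.57 ± 0.09, -1.28 ± 0.06 and -1.07 ± 0.07 (SE) on the log2 scale, with edgeR adjusted p of 3.2e-16, 2.6e-14, 6.4e-15 and 1.2e-12. Atp6v1c1, at 59.3 and 56.4 CPM, was -0.90 ± 0.07 (edgeR adjusted p = 1.5e-11).

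Against day 0, the difference between the lines at day 6 had moved down for 21 members and up for 2, against 22.4% and 22.1% of all genes. The median was -1.01 (-1.12 with members at 0 counts at their bound or left out; all genes 0.05), and with library totals the split was 4 members higher and 20 lower while upward calls made 76.9% of all calls in place of 49.7%. Ctsa moved by -2.21 ± 0.11 (SE; edgeR adjusted p = 3.5e-14), Ctsb by -2.01 ± 0.10 (SE; edgeR adjusted p = 2.8e-14) and Ctsz by -1.96 ± 0.11 (SE; edgeR adjusted p = 2.3e-13) on the log2 scale. The members that moved up were Atp6v1g2, a G subunit isoform known from neurons, and Atp6v0e2, an e subunit isoform known from brain. Ctsc and Ctsh were not called, but moved by -1.06, adjusted p = 0.00356, and -2.46, adjusted p = 2.6e-05 (edgeR), without FLAG-WT day 0 replicate 2.

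**Figure D4:**
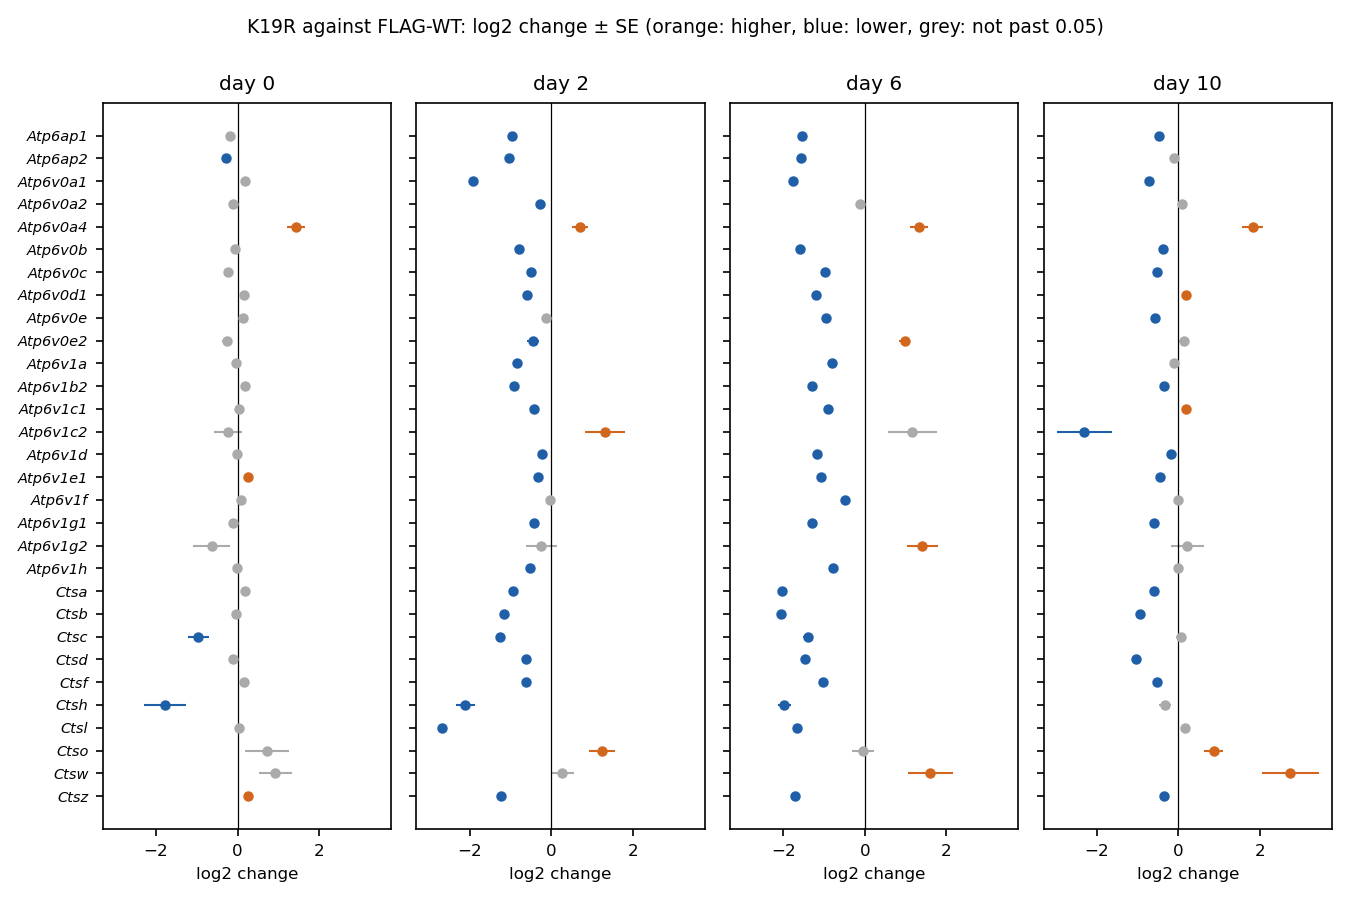
Log2 difference of K19R from FLAG-WT at each of 4 days for 30 tested members, with bars for the SE from edgeR; colour marks genes called higher or lower, and grey those not past the threshold. Ctsj and Ctsr, which passed the filter on low counts only through K19R at day 10, are left out but are among the 7 called higher then. The counts shift from 3 higher and 3 lower at day 0 to 4 higher and 23 lower at day 6 over all 32 tested members; at day 10 they were 7 and 15 here, and 15 and 10 with library totals.

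At day 10 the summed levels of the lines were closer than at day 6, and the split of members called depended on the scaling. With TMM, 15 members were lower and 7 higher in K19R, against 25.2% and 33.2% of all genes, while library totals gave 15 members higher and 10 lower. The 7 include Ctsj and Ctsr, which passed the filter on low counts only through K19R at day 10 and support nothing. Over all genes the median was 0.13 with TMM but 0.44 with library totals, and higher genes then made 77% of all calls in place of 56.9%. The members' median was -0.14 with TMM, the same with members at 0 counts at their bound or left out, and lay 0.27 below that of all genes. The cathepsin sum in K19R was 82.8% and the V-ATPase sum 79.9% of FLAG-WT with TMM, and 102% and 98.6% with library totals. Ctsl held 3128 and 3337 CPM in K19R and 2830.4 and 2944 in FLAG-WT, and its log2 difference of 0.16 ± 0.07 (SE; edgeR adjusted p = 0.0615) did not pass the threshold. Ctsc (493 and 646 CPM in K19R) and Ctsh (906 and 1062) did not pass either, at 0.06 ± 0.11 and -0.33 ± 0.16 (SE, edgeR adjusted p = 0.643 and 0.080). These outcomes depended on the processing. With library totals Ctsl (0.47, edgeR adjusted p = 2.8e-06) and Ctsc (0.36, edgeR adjusted p = 0.00421) were called higher in K19R. Without the filter Ctsl was called higher (0.19, edgeR adjusted p = 0.00757) and Ctsh lower (-0.29, edgeR adjusted p = 9.6e-05). Ctsh was also called lower with RLE size factors (-0.39) and with only the groups compared (-0.35). Ctsb and Ctsd were still lower. Ctsb held 879.7 and 919.6 CPM against 1623 and 1798, a log2 difference of -0.93 ± 0.07 (SE; edgeR adjusted p = 7.1e-12), and Ctsd 414 and 413 CPM against 789 and 902, a log2 difference of -1.03 ± 0.07 (SE; edgeR adjusted p = 9.7e-12). Atp6v0a1 held 362 and 372 CPM against 559.8 and 656, a log2 difference of -0.73 ± 0.07 (SE; edgeR adjusted p = 2.5e-09), and Ctsa was at -0.59 ± 0.07 (SE; edgeR adjusted p = 1.3e-07).

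From day 0 to day 10, the difference between the lines had moved down for 13 members and up for 3, against 18.8% and 26.1% of all genes. Library totals gave 12 members higher and 9 lower, with 80.3% of calls higher in place of 58.1%. The median was -0.08 (-0.10 with members at 0 counts at their bound or left out; all genes 0.16). Ctsd moved by -0.92 ± 0.11 (SE; edgeR adjusted p = 1.2e-07) and Atp6v0a1 by -0.91 ± 0.11 (SE; edgeR adjusted p = 1.1e-07) on the log2 scale. The 3 that moved up were Ctsc (1.02 ± 0.28, SE; edgeR adjusted p = 0.00459), Ctsh (1.46 ± 0.54, SE; edgeR adjusted p = 0.0318) and Ctsj (5.41 ± 1.69, SE; edgeR adjusted p = 0.0113). All 3 calls rested on FLAG-WT day 0 replicate 2, without which Ctsc was at 0.40, adjusted p = 0.288, Ctsh at -0.82, adjusted p = 0.147 and Ctsj at 1.73, adjusted p = 0.887 (edgeR). Ctsj passed the filter on low counts only through K19R at day 10. The Ctsh call was also lost with DESeq2 (1.39, adjusted p = 0.18), with only the groups compared (1.46, adjusted p = 0.0812) and without either K19R day 0 library or K19R day 10 replicate 2, at 1.78, adjusted p = 0.0686, 1.24, adjusted p = 0.133 and 1.34, adjusted p = 0.0564.

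A few members of low level went the other way. Atp6v0a4 was higher in K19R at every day, with 8.24 and 6.34 CPM against 4.44 and 4.53 at day 2, 6.81 and 6.01 against 2.78 and 2.24 at day 6, then 6.49 and 4.46 against 1.16 and 1.95 at day 10. The groups did not overlap at any day, and the log2 differences were 0.70 ± 0.19, 1.33 ± 0.23 and 1.82 ± 0.26 (SE; edgeR adjusted p = 0.00482, 1.3e-05 and 1.0e-06). The call at day 2 was lost without K19R day 2 replicate 1 (0.50, adjusted p = 0.102). Part of its exons lies in D630045J12Rik, which had 9732 counts over the 18 libraries, so that reads there are uncertain. Ctso, a cysteine protease of little known function, held 0.0834 and 0.559 CPM at day 0, 0.61 and 1.05 at day 2, 2.78 and 2.77 at day 6, then 4.91 and 4.6 at day 10 in FLAG-WT and 0.447 and 0.659 CPM at day 0, 1.78 and 2.26 at day 2, 2.59 and 2.78 at day 6, then 9.03 and 8.36 at day 10 in K19R. It was higher in K19R at day 2 by 1.25 ± 0.33 (SE; edgeR adjusted p = 0.00301) and at day 10 by 0.87 ± 0.23 (SE; edgeR adjusted p = 0.00218) on the log2 scale, and the former call was lost without FLAG-WT day 2 replicate 1 (0.95, adjusted p = 0.0607). Ctsw held 1.45 and 1.18 CPM at day 0, 3.34 and 3.77 at day 2, 0.649 and 0.89 at day 6, then 1.01 and 0.472 at day 10 in K19R and was higher there at day 6 by 1.61 ± 0.56 (SE; edgeR adjusted p = 0.0156) and at day 10 (edgeR adjusted p = 0.00159). At day 10 FLAG-WT held 0 and 0.216 CPM, so that the size of that difference rests on 1 library and is not given. The day 6 call was lost without FLAG-WT day 6 replicate 1 (1.38, adjusted p = 0.124) or K19R day 6 replicate 2 (1.35, adjusted p = 0.104). The rise of Ctso in FLAG-WT by day 2 (1.36 ± 0.48, SE; edgeR adjusted p = 0.0175) was lost without FLAG-WT day 0 replicate 1 (0.59, adjusted p = 0.302) or day 2 replicate 2 (0.89, adjusted p = 0.255).

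Atp6v0e2 and Atp6v1g2 were higher in K19R at day 6. Atp6v0e2 held 11.7 and 12 CPM at day 0, 7.23 and 7.98 at day 2, 6.87 and 7.38 at day 6, then 10.9 and 9.68 at day 10 in FLAG-WT and 9.81 and 10.1 CPM at day 0, 5.12 and 6.1 at day 2, 13.9 and 14 at day 6, then 12 and 10.7 at day 10 in K19R. The day 6 libraries of K19R were its highest in that line, with a log2 difference from FLAG-WT of 0.98 ± 0.13 (SE; edgeR adjusted p = 5.2e-07) and an interaction with day of 1.23 ± 0.18 (SE; edgeR adjusted p = 4.2e-06). Atp6v1g2 held 0.751 and 0.679 CPM at day 0, 0.697 and 0.907 at day 2, 0.783 and 0.472 at day 6, then 0.844 and 0.757 at day 10 in FLAG-WT and 0.447 and 0.47 CPM at day 0, 0.454 and 0.926 at day 2, 1.62 and 1.81 at day 6, then 0.847 and 1.03 at day 10 in K19R, a log2 difference at day 6 of 1.41 ± 0.38 (SE; edgeR adjusted p = 0.00233) with an interaction of 2.05 ± 0.59 (SE; edgeR adjusted p = 0.0058). Its rise in K19R by day 10 (1.02 ± 0.43, SE; edgeR adjusted p = 0.0341) was lost with any of the 4 libraries left out, for example 0.98, adjusted p = 0.126 without K19R day 0 replicate 1. Summed CPM of the neural markers Sox1, Pax6, Tubb3 and Map2 was 184 and 160 in K19R and 198 and 194 in FLAG-WT at day 0. At day 2 it was 24.6 and 24.5 in K19R and 28.0 and 27.8 in FLAG-WT. At day 6 it was 24.3 and 25.5 in K19R and 6.7 and 5.78 in FLAG-WT. The sum was thus level in K19R from day 2 to day 6 while that of FLAG-WT fell. The part of these markers in the result was not tested. Atp6v1c2, a C subunit isoform known from kidney and lung, held 1.88 and 1.52 CPM at day 0, 0.261 and 0.244 at day 2, 0.261 and 0.118 at day 6, then 0.475 and 0.595 at day 10 in FLAG-WT and 1.68 and 1.18 CPM at day 0, 0.487 and 0.789 at day 2, 0.365 and 0.534 at day 6, then 0.121 and 0.0858 at day 10 in K19R. It fell in both lines by day 10, with log2 changes of -1.66 ± 0.41 (SE; edgeR adjusted p = 7.4e-04) in FLAG-WT and -3.73 ± 0.54 (SE; edgeR adjusted p = 8.6e-07) in K19R, and was lower in K19R at day 10 with a log2 difference of -2.31 ± 0.67 (SE; edgeR adjusted p = 0.00467). Its higher level in K19R at day 2 (1.32 ± 0.50, SE; edgeR adjusted p = 0.0352) was lost with DESeq2 (1.36, adjusted p = 0.109) and in 3 of the 4 fits that left out a library, without FLAG-WT day 2 replicate 1 (1.36, adjusted p = 0.103), FLAG-WT day 2 replicate 2 (1.26, adjusted p = 0.157) or K19R day 2 replicate 2 (0.94, adjusted p = 0.257).

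Ctsj, Ctsr and Ctsq, cathepsins known in rodents from the placenta, had most of their counts in K19R at day 10. Ctsj stood at 0.211 and 0.216 CPM in FLAG-WT and 3.63 and 3.64 CPM in K19R at day 10, with groups that did not overlap. In K19R the libraries of day 10 held 175 of its counts together and those of day 0 held 1, a ratio of 175 with an exact 95% interval of 31.0 to 6945 that covers counting error only. Ctsr had 25 counts in K19R at day 10 and 0 in FLAG-WT, and was at least 3.24-fold higher with a floor of 3 counts in each library. Ctsj and Ctsr passed the filter on low counts only through the K19R day 10 libraries, where they are high, so that their calls there had to come out higher and support nothing. Ctsq had 20 counts against 0 there, at least 2.62-fold higher, and was too low to be tested. Ctsm, of the same family, had 15 counts in K19R mESCs at day 0 but 0 in the K19R embryoid bodies of day 10, at least 2.55-fold lower and not tested. Of the 6 trophoblast markers 5 were tested, and 4 were higher in K19R at day 10 and 0 lower, against 33.2% and 25.2% of all genes. Hand1, a regulator of trophoblast giant cells that heart and other mesoderm also use, was at 1.05 and 1.03 CPM in FLAG-WT and 19.2 and 20.4 CPM in K19R, and Prl3d1, a placental hormone of giant cells, at 0.105 and 0.0541 CPM in FLAG-WT and 1.77 and 1.97 in K19R. Prl3d1 was near 0 in FLAG-WT and may have passed the filter on low counts mainly through K19R, so that a call for it supports nothing here. Tpbpa, a marker of the spongiotrophoblast, was near 0, at 0.0806 and 0.0858 CPM in K19R. The summed list was at 19.4 and 13.9 CPM in FLAG-WT and 45.1 and 50.4 in K19R at day 10, and its part in the result was not tested.

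Levels of different genes were compared per length, as CPM per kilobase of exon. All exonic bases of a gene entered its length. Part of them (26.8% for Ctsl and 34.4% for Ctsd) lies in another gene model, where counts are uncertain. For Ctsl, 6.09% lies in a second model. Within the cathepsins the order changed with the day. At day 0 Ctsd was the highest in both lines, at 59.7 ± 0.552 in FLAG-WT and 55 ± 3.44 in K19R (SD, n = 2). Ctsl was the highest in FLAG-WT at day 2 (171 ± 2.08), day 6 (621 ± 18) and day 10 (445 ± 12.4), whereas in K19R at day 2 Ctsd (60.8 ± 3.41) was still above Ctsl (26.9 ± 1.4). As a share of the CPM per kilobase of all cathepsins, Ctsl made 13.3% ± 0.859 at day 0 and 40.1% ± 0.915 at day 2 in FLAG-WT, and 13.3% ± 0.179 and 16.5% ± 0.156 in K19R. Ctsh made 1.05% ± 0.00396 at day 2 and 12.9% ± 0.136 at day 6 in FLAG-WT, and 0.642% ± 0.0303 and 10.8% ± 0.139 in K19R.

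Of the 4 isoforms of V0 subunit a, which steer the pump to different membranes, Atp6v0a1 made the largest share in every group. The fourth, Tcirg1 (the a3 isoform, known from osteoclasts), is not named Atp6v0 and is no member. Per kilobase, Atp6v0a1 made 52.8% ± 1.01 of the subunit a transcripts at day 0 in FLAG-WT (SD, n = 2), 85.1% ± 1.39 at day 2, 84.2% ± 0.464 at day 6 and 84.2% ± 1.45 at day 10. In K19R it made 55% ± 0.624, 55.3% ± 0.649, 69.4% ± 1.21 and 75.2% ± 1.6. The FLAG-WT share was at its later level by day 2, and the K19R share at day 2 lay within the replicate spread of day 0. Atp6v0a2, the isoform known from Golgi and endosomes, held 34.8 and 36.1 CPM at day 0 and 22.5 and 22.6 at day 6 in FLAG-WT, a log2 change of -0.65 ± 0.10 (SE; edgeR adjusted p = 1.8e-06). In K19R it held 31.6 and 34.1 CPM at day 0 and 20.3 and 21.6 at day 6, a log2 change of -0.65 ± 0.10 (SE; edgeR adjusted p = 2.0e-06). Its share per kilobase went from 32.5% ± 0.046 to 2.81% ± 0.0959 in FLAG-WT and from 27.8% ± 0.439 to 7.33% ± 0.00207 in K19R. Atp6v0a4 made 7.97% ± 0.612 in K19R and 3.21% ± 0.536 in FLAG-WT at day 0, and 17.6% ± 0.293 in wildtype mESCs.

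**Figure D5:**
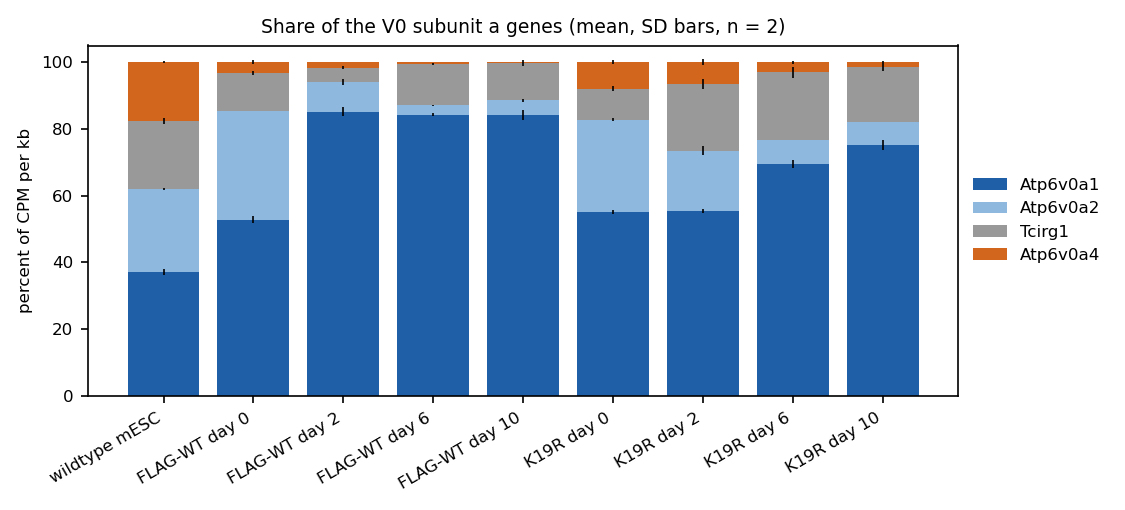
Share of each V0 subunit a isoform in the summed CPM per kilobase of Atp6v0a1, Atp6v0a2, Tcirg1 and Atp6v0a4, as stacked bars for the 9 groups with SD over 2 libraries. Atp6v0a1 makes 85.1% ± 1.39 in FLAG-WT at day 2 and 55.3% ± 0.649 in K19R.

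Other lysosomal genes of related lists were lower in K19R at days 2 and 6 as well. Of all genes, 21.8% were lower and 20% higher in K19R at day 2. These shares were 30.1% and 28.4% at day 6, and 25.2% and 33.2% at day 10. Of 35 tested lysosomal hydrolases other than cathepsins, K19R had 24 lower and 4 higher at day 2, 33 lower and 1 higher at day 6, and 20 lower and 6 higher at day 10, with median log2 differences of -0.52, -1.27 and -0.30. At day 2 the largest were Lgmn, the asparaginyl protease legumain that processes cathepsins, at 70.1 and 70.5 CPM in K19R against 604 and 588 in FLAG-WT (log2 difference -3.08 ± 0.10, SE; edgeR adjusted p = 1.0e-18), Asah1, acid ceramidase (-1.24 ± 0.07), and Tpp1, a tripeptidyl peptidase (-1.20 ± 0.07). At day 10 they were Gm2a, a ganglioside activator (-1.18 ± 0.08), Sgsh, a heparan sulfatase (1.15 ± 0.12), and Pla2g15, a lysosomal phospholipase (-0.99 ± 0.08). Of 20 genes of the lysosomal membrane and of sorting, K19R had 15 lower and 1 higher at day 2, 17 lower and 2 higher at day 6, and 9 lower and 5 higher at day 10, led at day 2 by Cd63 (-1.26 ± 0.07), Lamp2 (-1.05 ± 0.08) and the cystine exporter Ctns (-0.98 ± 0.08). At day 10 the leading genes were Igf2r, a mannose 6-phosphate receptor (1.62 ± 0.12), Gnptab, which makes the mannose 6-phosphate tag (1.03 ± 0.09), and Cd63 (-0.96 ± 0.07). Of 12 tested assembly factors and partners of the V-ATPase, K19R had 7 lower and 2 higher at day 2, 8 lower and 0 higher at day 6, and 3 lower and 4 higher at day 10. Among them Ncoa7 (-1.21 ± 0.12) and the assembly chaperone Vma21 (-0.74 ± 0.11) were lower and Tcirg1 (0.91 ± 0.11) higher at day 2, whereas Wdr7 (0.60 ± 0.11) and Dmxl1 (0.57 ± 0.12) were higher and Rogdi (-0.58 ± 0.10) lower at day 10. With TMM the day 10 split of the assembly factors and partners lay near the shares of all genes. With library totals the day 10 counts were 12 lower and 13 higher for the hydrolases and 5 lower and 10 higher for membrane and sorting. Assembly factors and partners then had 1 lower and 8 higher at day 10 and 3 lower and 1 higher at day 6. Higher genes made 77.0% of all calls at day 10 and 72.9% at day 6 under that scaling.

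Of 3 tested cathepsin inhibitors, K19R had 1 lower and 0 higher at day 2, 3 lower and 0 higher at day 6, and 2 lower and 0 higher at day 10, with Cst3, the secreted cystatin C, at -0.88 ± 0.07 on the log2 scale at day 2, and Serpinb6a and Cstb at -0.63 ± 0.08 and -0.38 ± 0.07 at day 10. The 4 genes of the TFEB family had 3 lower and 0 higher at day 2, 3 lower and 0 higher at day 6, and 1 lower and 3 higher at day 10. Over all genes, 21.8% were lower and 20% higher at day 2. The shares were 30.1% and 28.4% at day 6, and 25.2% and 33.2% at day 10. Counts from lists of 3 and 4 genes say little against such shares. Tfec, a family member known from macrophages, was at 66 and 71.3 CPM in FLAG-WT and 4.09 and 5.08 CPM in K19R at day 2, a log2 difference of -3.91 ± 0.17 (SE; edgeR adjusted p = 8.8e-16). At day 10 the order was turned, with Tfec at 17.6 and 11.1 CPM in FLAG-WT and 55.8 and 65.8 CPM in K19R, a log2 difference of 2.08 ± 0.15 (SE; edgeR adjusted p = 1.7e-11). Tfeb and Mitf differed by -1.28 ± 0.11 and -0.56 ± 0.14 (SE) at day 2, with edgeR adjusted p of 2.4e-10 and 0.0015, and Mitf and Tfe3 by 0.51 ± 0.16 and -0.35 ± 0.07 at day 10. With library totals the family had 0 lower and 3 higher at day 10, when higher genes made 77.0% of all calls. None of the 5 other Cts genes could be tested.

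Markers of endoderm rose and differed between the lines over the same days as the members, but not in step with them. The 12 markers of primitive and visceral endoderm summed to 94 and 204 CPM in FLAG-WT at day 0, 5599 and 5667 at day 2, 22415 and 23159.9 at day 6, then 31605 and 31779.5 at day 10. In K19R they summed to 169.8 and 206 CPM at day 0, 629 and 500.1 at day 2, 9066 and 8897 at day 6, then 21645 and 21947 at day 10. In FLAG-WT 12 of the 12 had risen by day 6, against 37.0% of all genes. From day 6 to day 10 the sum of the markers went up while that of the members went down, from 14907 and 15074 CPM to 11685 and 12485. At day 0, 6 of the 12 markers were already lower in K19R and 2 higher, against 4.98% and 5.51% of all genes, with a median log2 difference of -1.0045. For the members, 3 were lower and 3 higher with a median of -0.02. The marker sum in K19R was yet 126% of FLAG-WT, where replicate 2 held 204 CPM and replicate 1 held 94. The markers were not read without FLAG-WT day 0 replicate 2, so that their day 0 difference may rest on that library. K19R had 10.0% of the FLAG-WT sum at day 2, 39.4% at day 6 and 68.8% at day 10. In K19R 11 of the 12 markers were lower at day 2, 11 at day 6 and 4 at day 10, when 2 were higher. Of all genes, 21.8%, 30.1% and 25.2% were lower on these days, and 33.2% were higher at day 10. From day 0 to day 6 the difference between the lines moved down for 5 markers and up for 3, against 22.4% and 22.1% of all genes. The median was -0.18 for the markers and -1.01 for the members. The marker value uses the same day 0 libraries and has the same limit. Library totals gave 1 marker lower and 7 higher at day 10, when higher genes made 77.0% of all calls. The 5 parietal endoderm markers were at 19.8%, 35.6% and 54.1% of FLAG-WT on these days. In the macrophage list, the defining leukocyte gene Ptprc stood at 0.0435 and 0 CPM and the macrophage gene Adgre1 at 0 and 0 CPM in FLAG-WT at day 6, at or near 0. Lyz2 was at 0.0435 and 0.177 CPM and Spi1 at 0 and 0 CPM there. Of the 6 genes 3 could be tested, and 2 rose and 1 fell by day 6 in FLAG-WT, against 37.0% and 39.1% of all genes. Cd68, a lysosomal membrane protein of macrophages, rose in FLAG-WT from 18.5 and 23.5 CPM at day 0 to 592 and 731 at day 10, and Csf1r from 0.0417 and 0.20 to 46.9 and 42.6. The macrophage list summed to 519 and 509 CPM in FLAG-WT and 128 and 133 in K19R at day 6. The 5 stem cell markers summed to 4518 and 4469 CPM at day 0 and 53.2 and 51.5 at day 10 in FLAG-WT, and to 4739 and 4474 at day 0 but 588 and 468 at day 10 in K19R. The part of these cell types in the members' levels was not tested.

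Wildtype mESCs in LIF differed from FLAG-WT mESCs in LIF and 2i at 12 members that were higher and 11 that were lower, against 32.4% and 32.5% of all genes, with a median log2 difference of 0.09 (all genes 0.00; 0.10 with members at 0 counts at their bound or left out). The FLAG tag, medium, count table and counter version differ together and cannot be told apart. Cathepsins were 5 higher and 2 lower, and V-ATPase genes 7 higher and 9 lower. Atp6v0a4 held 13.8 and 13.7 CPM in the wildtype mESCs against 2.84 and 2.32 in FLAG-WT, a log2 difference of 2.42 ± 0.19 (SE; edgeR adjusted p = 1.2e-11). Ctsw (2.79 and 2.98 CPM), Ctsc (10.1 and 9.57) and Ctsz (55.7 and 52.1) were higher by 2.06 ± 0.33, 1.43 ± 0.19 and 0.78 ± 0.08 (SE), with edgeR adjusted p of 5.2e-06, 1.4e-07 and 1.2e-09. Without FLAG-WT day 0 replicate 2 Ctsc was at 2.06. Ctsh was not called (0.23 ± 0.37, SE; edgeR adjusted p = 0.59), but was called lower without FLAG-WT day 0 replicate 1 (-0.58, adjusted p = 0.013) and higher without replicate 2 (2.51, adjusted p = 3.5e-07), so that the count of cathepsins called rests on these libraries. Atp6v0c (6.95 and 7.45 CPM), Ctsf (12.3 and 9.87) and Ctsd (86.4 and 84.9) were lower, at -1.43 ± 0.10, -0.99 ± 0.11 and -0.71 ± 0.08 (SE), with edgeR adjusted p of 1.3e-12, 5.8e-09 and 3.7e-09. Atp6v1c2 (0.52 and 0.246 CPM) was lower, with a log2 difference of -2.34 ± 0.42 (SE; edgeR adjusted p = 2.3e-05). Ctso (0.715 and 1.23 CPM) was higher by 1.69 ± 0.46 (SE; edgeR adjusted p = 0.00217), a call lost without wildtype replicate 2 (1.12, adjusted p = 0.173) or FLAG-WT day 0 replicate 1 (0.92, adjusted p = 0.0822). Ctsl (168 and 153 CPM) was higher by 0.44 ± 0.08 (SE; edgeR adjusted p = 1.3e-05). Ctsb, at 87.4 and 82.6 CPM, and Ctsa, at 64.2 and 59.3 CPM, were not called.

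Reads were counted without strand, so that counts in exons shared with another gene are uncertain. Of the 43 members, 15 share exonic bases with another gene and 28 do not. The overlapping genes with the most counts were Pdia6, on 2.3% of the exonic bases of Atp6v1c2, Fdft1, on 12.8% of those of Ctsb, Nelfcd, on 0.694% of those of Ctsz, and Pltp, on 10.5% of those of Ctsa. Ctsd, Ctsl and Atp6v0c share 34.4%, 26.8% and 27.4% of their exonic bases with gene models that had 0 counts in all 18 libraries. A second model with 0 counts, Gm49230, lies on 6.09% of the exonic bases of Ctsl.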

How the data were processed

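RNA-seq was measured in 18 libraries of 9 groups. Per the labels' protocols, total RNA came from an RNeasy kit and libraries from the VAHTS Total RNA-seq kit. The deposited values are raw read-pair counts for each gene name, made by the authors with featureCounts 1.6.3 (FLAG-EED) and 1.6.4 (wildtype) over exons of GENCODE vM19 on GRCm38 with no strand option, per the file headers. STAR 2.7.0c, Trim Galore 0.6.0, FastQC 0.11.7 and bcl2fastq 2.17 are named in the submitters' processing notes. Replicates are numbered in the labels. They differed by more than sampling noise (chi-square per degree of freedom 2.36 to 12.3), and nothing says that each came from its own culture. The p-values thus cover the spread between these samples alone, and that spread may be technical.

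Genes were kept with filterByExpr (minimum count 10, total 15), scaled by TMM and tested with edgeR 4.0.16 in R 4.3.3 (glmQLFit and glmQLFTest, two-sided), with Benjamini-Hochberg adjustment over all genes at 0.05. The 16 FLAG-EED libraries entered 1 fit (19092 genes, 8 residual degrees of freedom), which gave 13 comparisons. The wildtype mESCs entered a fit of 18 libraries (19296 genes, 9 residual degrees of freedom). An interaction is the log2 difference of K19R from FLAG-WT at a later day less that at day 0. The biological coefficient of variation was 0.062. The SE is the absolute log2 change over the square root of F. Folds against 0 counts use a floor of 3 counts per library. The test was checked on simulated counts.

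The members, gene lists and tests were chosen with earlier results of these data known. Values are given for the up to 3 called members with the largest change in each direction in each comparison, with a mean of at least 1 CPM in 1 group, and for Ctsb, Ctsd, Ctsl and Atp6ap2. Ctsr, Ctsq, Ctsm and the members with TCACGTGA were named after their values were seen. From the related lists the 3 called genes with the largest change at days 2 and 10 are named. Alternatives were RLE size factors, library totals, no filter, DESeq2 1.42.0, fits of only the groups compared, a replicate block, and each library left out. Motifs were searched in the RefSeq promoter table of GRCm38.p6.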

Additional observations from a re-analysis of the deposited data

Results flagged for a closer look

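The difference between K19R and FLAG-WT changed with the day for 14 values of named genes, by edgeR's interaction test. From day 0 to day 2 it moved by -2.69 on the log2 scale for Ctsl, -2.10 for Atp6v0a1 and -1.48 for Ctsz. From day 0 to day 6 it moved by -2.21 for Ctsa, -2.01 for Ctsb and -1.96 for Ctsz, and upward by 2.05 for Atp6v1g2 and 1.23 for Atp6v0e2. From day 0 to day 10 it moved by -2.07 for Atp6v1c2 (edgeR adjusted p = 0.0281), -0.92 for Ctsd and -0.91 for Atp6v0a1, and upward by 5.41 for Ctsj, 1.46 for Ctsh and 1.02 for Ctsc. The last 3 rested on FLAG-WT day 0 replicate 2, as given above, and Ctsj passed the filter on low counts only through K19R at day 10. The Atp6v1c2 value no longer passed with library totals (-1.74, adjusted p = 0.0558) or DESeq2 (-2.20, adjusted p = 0.0752), nor with 5 of the 8 libraries left out in turn, with log2 values between -2.34 and -1.78.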

How the results depend on the processing

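At day 0 the count of 6 members called between K19R and FLAG-WT was 11 when only the groups compared were fitted (7 higher, 4 lower; all genes 4014 in place of 2003), and 1 to 3 with 1 library left out (all genes 844 to 957). The cause was not tested. For the other 13 comparisons the count of members called stayed within 1.5 times under each alternative and leave-out. With 1 library left out it ran from 23 to 24 at day 2, 26 to 27 at day 6 and 20 to 22 at day 10 for K19R against FLAG-WT, and from 11 to 16 for the change of that difference to day 10. Ctsh changed sign without FLAG-WT day 0 replicate 2. Its log2 difference at day 0 ran from -2.60 to 0.49 over the leave-outs, and its change from day 0 to day 10 from -0.82 to 2.28. The values of named genes were picked as called ones with the largest changes, so that none could newly pass. Calls gained elsewhere, such as that of Ctsl at day 10 with library totals, are not counted. Of 456 such values under alternatives other than leave-outs, 449 kept their side of the threshold and 7 no longer passed it. Of 360 with a library left out, 323 kept their side, 35 no longer passed and 2 changed sign. Same-numbered replicates did not deviate together over all genes (r from -0.030 to 0.021 over 11 pairs of groups, 0 over 0.1). This check could miss a shared batch that acts on some genes only. A replicate block left the count at day 2 at 3 higher and 23 lower (all genes 7868 in place of 7973). DESeq2 gave 4 higher and 16 lower at day 10, with no adjusted p for Ctsr. Depth limits members that lie under about 1 CPM in at least 1 group compared (among them Ctsj, Ctsm, Ctso, Ctsq, Ctsr, Ctsw, Atp6v1c2 and Atp6v1g2), where a few counts decide a fold.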
